A study of Homo sapiens with 6 samples.

Results

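The HLA class II genes, their chaperones and their transcriptional coactivator were examined in human cells in which the arginine methyltransferase PRMT5 had been lowered. The members were the chain genes HLA-DRA, HLA-DRB1, HLA-DPA1, HLA-DPB1, HLA-DQA1 and HLA-DQB1, the peptide editor genes HLA-DMA and HLA-DMB, the invariant chain gene CD74 and the coactivator gene CIITA. Every probe set whose symbol in the probe-to-gene table was, or included, one of these 10 genes was taken, which gave 58 of the 49372 probe sets on the array. Of the 58, 49 carried 1 symbol and 9 were shared by several genes. The PRMT5_down group held 3 arrays of cells labelled NCI-H929, which is a line from human multiple myeloma, that carried a lentivirus meant to lower PRMT5, called a sponge in the titles and a short hairpin RNA in the protocol. The control group held 3 arrays of cells labelled as the same line, titled as carrying a control sponge lentivirus and called normal cells in the treatment protocol. Puromycin selection followed transduction, and both groups were collected at the same time, according to the protocols in the labels. Both groups carry replicate numbers 1 to 3, whose meaning the labels do not give. The labels do not call the replicates separate cultures, so each p-value is set against array-to-array spread that may be technical.

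Class II molecules are pairs of an alpha and a beta chain that show peptides from the endosomal pathway to CD4+ T cells. The invariant chain CD74 fills the groove of a new pair in the endoplasmic reticulum and takes it to the endosome, where proteases trim CD74 and HLA-DM exchanges its last fragment for a peptide. CIITA binds no DNA itself. It docks on the RFX complex, CREB and NF-Y, which sit on the X and Y boxes of class II promoters, and its presence sets whether the genes are on. B cells keep CIITA on, and plasma cells normally lose it when PRDM1 represses it. Interferon gamma can turn it on in many other cells.

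The values are log2 signals per probe set, and array medians lay between 5.29 and 5.32. Background was set on each array as the 95th percentile of 333 olfactory receptor genes, and lay between 4.89 and 5.01. The targeted gene PRMT5 had 8.63, 9.65 and 9.37 in PRMT5_down replicates 1, 2 and 3, against 9.93, 10.35 and 10.30 in control replicates 1, 2 and 3. Its difference was -0.98 (SE 0.28), the lowest of all probe sets. Limma did not call it over all probe sets (adjusted p = 1), also with the replicate number as a block (limma adjusted p = 0.261). The unadjusted limma p of PRMT5 was 0.0123, and 3.79e-05 with the block. Limma called 0 of all probe sets in both fits. The labelled cell type was checked against marker lists by each gene's brightest single-symbol probe set. Of 14 plasma cell genes measured, XBP1, DERL3, PRDM1, FKBP11 and SDC1, 5 in all, were above background on all 6 arrays. Another 8 were above it on none, among them CD38, TNFRSF17, IRF4, MZB1 and POU2AF1. Of 11 erythroid and megakaryocyte genes, 10 were above background on all 6 arrays, among them HBZ, ALAS2, AHSP and GATA1. Several defining plasma cell markers were thus under background, and erythroid markers above it, on all arrays of both groups. Of the 4 genes in a list for the t(4;14) class of myeloma, NSD2, FGFR3 and CCND2, 3 in all, were above background on all 6 arrays. MAF was above it on none, and is not read here as a marker of that translocation. The files do not settle which cells these are, so every class II value holds for the arrays as labelled. Of the other cell types that carry class II, 2 of 11 B cell genes and 4 of 16 monocyte, macrophage and dendritic cell genes were above background on all 6 arrays. Of 9 T and NK cell genes 2 were above background on all 6 arrays. The B cell genes CD79A and CD22 and the myeloid genes LYZ, CD68, ITGAX and CSF1R were the ones above it on all 6 arrays, while the B cell gene MS4A1 and the monocyte gene CD14 were on none.

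Class II signal was at or below background in both groups for most probe sets. Of the 58 probe sets, 3 were above background on all 6 arrays, 6 on some arrays and 49 on none. Over all 49293 probe sets other than controls, 50.6% were above it on all 6 arrays, against 5.17% of the class II ones. By definition 95% of the olfactory receptor genes lie at or under the line on each array, and the rest above it. The class II share is read beside that rest, and passing the line does not by itself show expression. The 333 olfactory receptor genes had 359 probe sets, while 1 member had 13, which gives such a member more chances to pass. The 3 belonged to HLA-DPB1, HLA-DPA1 and CIITA, and each of these genes also had probe sets above background on no array. The count depends on where background is set. With the 99th percentile of the olfactory receptor genes in its place, 0 of the 58 were above it on all 6 arrays, and with their median 30 were. The HLA-DPB1 set passed the 99th percentile on 5 arrays, and the HLA-DPA1 and CIITA sets passed it on 0.

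**Figure D1:**
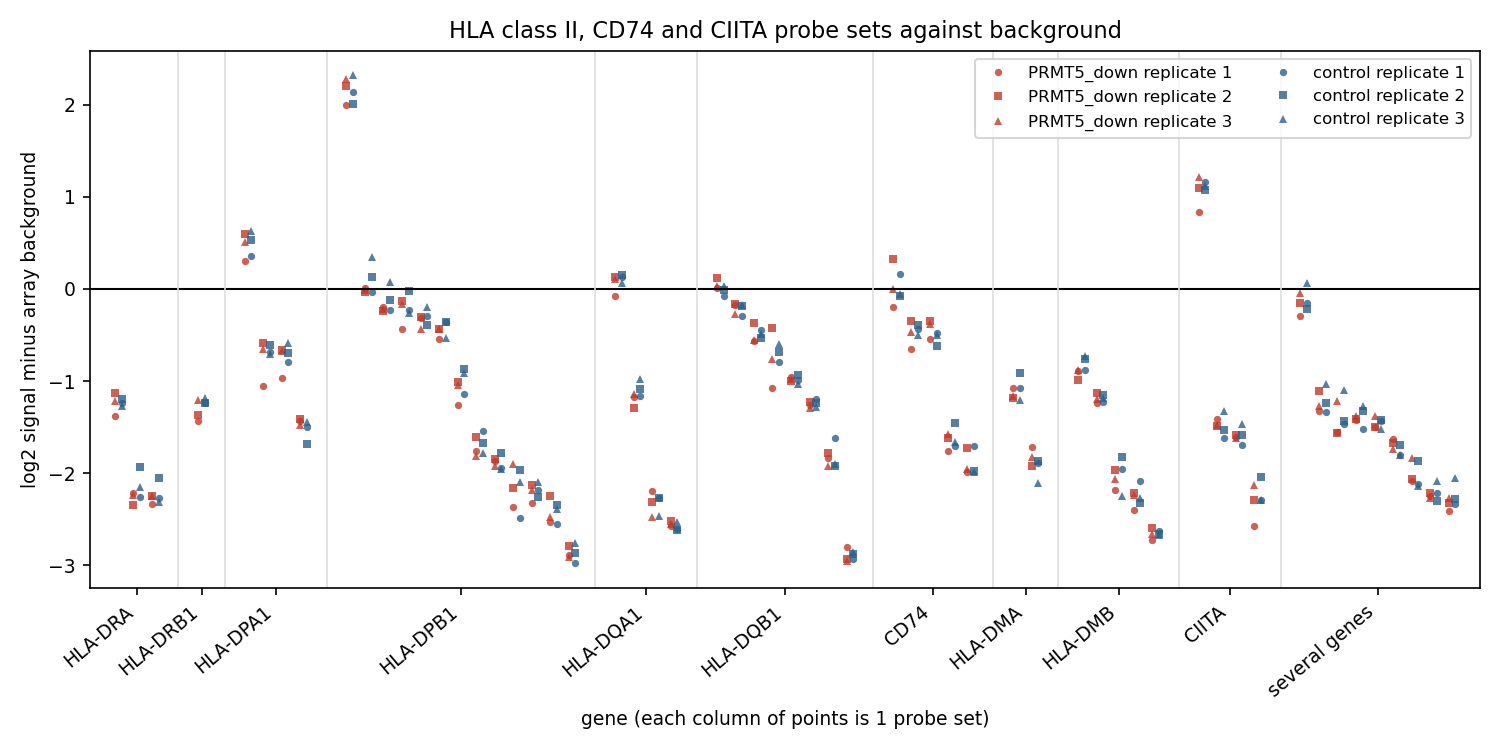
Log2 signal minus the background of the same array (y axis) for each of the 58 probe sets, grouped by gene on the x axis, with the 9 shared probe sets on the right. Each point is 1 array, red for PRMT5_down and blue for control, and the line at 0 is background. Only 3 columns, of HLA-DPA1, HLA-DPB1 and CIITA, lie wholly above the line, and red and blue points of a column lie close together.

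HLA-DRA and HLA-DRB1, whose DR molecule is the most abundant class II molecule of antigen-presenting cells, were below background almost throughout. HLA-DRA encodes the DR alpha chain, and its 4 probe sets, 1 of them shared with HLA-DQA1, were above background on no array. The brightest that names HLA-DRA alone, 11744484_s_at, had 3.56, 3.76 and 3.74 in PRMT5_down replicates 1, 2 and 3, against 3.74, 3.71 and 3.74 in control replicates 1, 2 and 3. The groups overlapped, and every value lay over 1 log2 unit below the background of its array. HLA-DRB1, the polymorphic DR beta chain gene, had 5 probe sets, 4 of them shared with other beta chain genes. Its only own probe set, 11759642_x_at, had 3.51, 3.52 and 3.75 in PRMT5_down, against 3.74, 3.67 and 3.83 in control. A probe set shared by HLA-DRB1, HLA-DRB3 and HLA-DRB5, 11744374_x_at, had 4.65, 4.74 and 4.92 in PRMT5_down, against 4.83, 4.69 and 5.07 in control, and passed background only on the array of control replicate 3.

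HLA-DPB1, the DP beta chain gene, was above background on all 6 arrays by 1 of its 13 probe sets. This probe set, 11758771_at, had 6.94, 7.09 and 7.24 in PRMT5_down replicates 1, 2 and 3, against 7.12, 6.92 and 7.33 in control replicates 1, 2 and 3. These values lay about 2 log2 units over background on every array, and the groups overlapped. Of the other 12 HLA-DPB1 probe sets, 2 were above background on some arrays and 10 on none, and the means of the 13 ran from 2.08 to 7.11. The probe sets of this gene therefore disagree on whether it gives signal. For 11761306_at the values were 4.95, 4.86 and 4.95 in PRMT5_down, against 4.95, 5.04 and 5.36 in control. HLA-DPA1, the DP alpha chain gene, had 4 probe sets, 1 above background on all 6 arrays and 3 on none. The set above it, 11715583_s_at, had 5.24, 5.49 and 5.47 in PRMT5_down, against 5.34, 5.44 and 5.64 in control. In the RefSeq gene table HLA-DPA1 and HLA-DPB1 overlap each other and the ribosomal protein pseudogene RPL32P1. Their part in these signals was not tested.

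The DQ genes lay at the background line or under it. HLA-DQA1, the DQ alpha chain gene, had 9 probe sets, of which 8 were above background on no array. The exception, 11753898_x_at, had 4.86, 5.02 and 5.07 in PRMT5_down, against 5.11, 5.06 and 5.07 in control, and was under background only in PRMT5_down replicate 1. HLA-DQB1, the DQ beta chain gene, had 10 probe sets, 9 of them above background on no array. Its brightest, 11747511_x_at, had 4.95, 5.01 and 4.99 in PRMT5_down, against 4.90, 4.90 and 5.04 in control. All 3 PRMT5_down arrays and control replicate 3 were above background by at most 0.12, and the groups overlapped. Class II genes are highly polymorphic, and how well these probes match the alleles of this line was not tested.

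CD74, the invariant chain gene, had 5 probe sets, of which 4 were above background on no array. The brightest, 11726254_s_at, had 4.74, 5.22 and 4.96 in PRMT5_down replicates 1, 2 and 3, against 5.14, 4.83 and 4.95 in control replicates 1, 2 and 3. It passed background in PRMT5_down replicate 2 and control replicate 1, and the groups had the same mean. HLA-DMA and HLA-DMB, the chains of the peptide editor, had 2 and 5 probe sets, and none was above background on any array. The brightest of HLA-DMA, 11745989_a_at, had 3.86, 3.71 and 3.80 in PRMT5_down, against 3.91, 4.0 and 3.80 in control. For HLA-DMB, 11754681_s_at had 4.05, 3.90 and 4.08 in PRMT5_down, against 4.10, 4.15 and 4.28 in control, and all 3 PRMT5_down values lay under all 3 control values.

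CIITA was above background by 1 of its 4 probe sets. The set 11753193_a_at had 5.77, 5.98 and 6.17 in PRMT5_down replicates 1, 2 and 3, against 6.14, 5.98 and 6.13 in control replicates 1, 2 and 3, about 1 log2 unit over background. PRMT5_down held both the lowest and the highest of the 6 values. The other 3 probe sets of CIITA, among them 11752297_x_at with 3.53, 3.40 and 3.48 in PRMT5_down and 3.36, 3.38 and 3.68 in control, were above background on no array. In the RefSeq gene table CIITA overlaps its neighbour DEXI, whose 2 probe sets were above background on all 6 arrays, and whether DEXI adds to the CIITA signal was not tested.

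The probe set names carry the array maker's own grading. A name ending in _x_at marks probes that may match other sequences, one in _s_at a set shared by similar transcripts and one in _a_at a set shared by transcripts of 1 gene. Of the 58 probe sets, 37 end in _x_at, 7 in _a_at, 6 in _s_at and 8 in plain _at. None of the 37 was above background on all 6 arrays, and 1 each of the other 3 kinds was.

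Letter matches to the sequence elements that CIITA acts through are shown for the members whose promoters hold a match to the X box letters. RefSeq promoter sequences of GRCh38.p14, each from 250 bases before to 50 bases after the gene start, were found for 8 of the 10 members. They were searched on both strands for 2 patterns. The X box pattern is CC, G, AC and TG in that order with 2, 2 and 3 bases of any kind between them, and the Y box core is GATTGG. Only full matches were counted, so the near match ccaatg in CD74 was left out. The patterns do not overlap in any of these promoters. The X pattern was found in 4 members, CD74, HLA-DQB1, HLA-DMA and HLA-DMB, and in 3.9% of all 35116 promoters in the table. The Y core was found in 5 members, HLA-DRB1, HLA-DPB1, HLA-DQB1, HLA-DMA and HLA-DMB, and in 15.1% of all promoters. HLA-DQB1, HLA-DMA and HLA-DMB held both, as did 0.581% of all promoters. The 4 promoters with the X pattern are printed 5′ to 3′ from 150 bases before to 10 bases after the start, with matches to either pattern in capitals. CD74 lies at chr5:150412901-150413060, HLA-DQB1 at chr6:32666648-32666807, HLA-DMA at chr6:32953088-32953247 and HLA-DMB at chr6:32941019-32941178, all on the minus strand of GRCh38.p14.
HLA-DQB1: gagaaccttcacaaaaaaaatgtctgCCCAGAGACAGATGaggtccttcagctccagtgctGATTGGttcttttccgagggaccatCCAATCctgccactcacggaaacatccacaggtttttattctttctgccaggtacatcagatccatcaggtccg
HLA-DMA: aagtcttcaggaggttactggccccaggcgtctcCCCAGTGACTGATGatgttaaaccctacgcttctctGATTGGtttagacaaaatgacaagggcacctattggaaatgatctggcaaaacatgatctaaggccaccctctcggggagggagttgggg
HLA-DMB: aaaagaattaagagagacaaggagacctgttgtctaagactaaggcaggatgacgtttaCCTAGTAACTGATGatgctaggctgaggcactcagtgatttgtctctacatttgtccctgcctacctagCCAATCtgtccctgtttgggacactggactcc
CD74: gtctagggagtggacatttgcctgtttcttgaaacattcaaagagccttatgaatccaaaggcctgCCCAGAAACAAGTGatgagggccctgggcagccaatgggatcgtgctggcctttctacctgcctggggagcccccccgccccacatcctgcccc

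In HLA-DQB1 the X match begins 124 bases before the start and the nearer Y match on the same strand 89 bases before it. In HLA-DMA they begin 116 and 80 bases before it. In HLA-DMB the X match begins 91 bases before the start and the Y match, read on the other strand, 22 bases before it. A match is a description of these letters and does not show binding in these cells. All probe sets of HLA-DMA and HLA-DMB, and all but 1 of HLA-DQB1 and of CD74, were above background on no array.

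The factors that bind those boxes were above background in both groups. All 7 genes of the X and Y box list were above background on all 6 arrays, each by its brightest single-symbol probe set. They are the RFX subunit genes RFX5, RFXAP and RFXANK, the NF-Y subunit genes NFYA, NFYB and NFYC, and CREB1. RFXANK had 9.40, 8.90 and 9.35 in PRMT5_down replicates 1, 2 and 3, against 9.42, 8.89 and 9.79 in control replicates 1, 2 and 3. RFX5 had 8.11, 8.40 and 8.57 in PRMT5_down, against 8.24, 8.39 and 8.53 in control. Groups overlapped for both genes, and the arrays of number 2 were the lowest for RFXANK. The next in level over background were NFYC with a difference of -0.11 (SE 0.23), NFYB with 0.19 (SE 0.47) and RFXAP with 0.27 (SE 0.50). The SEs here and for the lists below come from the fit without the block, so they include spread between replicate numbers. Within numbers 1, 2 and 3 NFYB differed by 0.29, 0.04 and 0.24 and RFXAP by 0.36, 0.08 and 0.38. Of the 7 genes 3 were higher in all 3 numbers and 1 lower in all 3, beside 12.5% and 14.3% of all probe sets. In mean 3 were higher and 4 lower, and limma called 0 at an adjusted p under 0.05, also with the replicate block. With the block 1 of the 7 had an unadjusted limma p under 0.05, beside 8.56% of all.

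Of 9 measured genes on the interferon gamma route to CIITA, 8 were above background on all 6 arrays. The exception was IFNG, the cytokine gene itself, which was above background on none. The kinase gene JAK1 had 8.96, 9.27 and 8.83 in PRMT5_down, against 9.05, 9.46 and 8.89 in control, and the receptor gene IFNGR2 had 8.62, 8.75 and 8.80, against 8.85, 8.91 and 8.85 in control. JAK1 overlapped between the groups, while the IFNGR2 values of PRMT5_down all lay at or under 8.80 and those of control at or over 8.85. Groups did not overlap, with PRMT5_down lower, for 2.43% of all probe sets. The differences of JAK1 and IFNGR2 were -0.11 (SE 0.19) and -0.15 (SE 0.09). For IFNGR2 the unadjusted limma p was 0.135, and 0.117 with the block. The transcription factor genes IRF2 and IRF1 differed by 0.23 (SE 0.23) and -0.11 (SE 0.19), and the receptor gene IFNGR1 by 0.10 (SE 0.15). Within numbers 1, 2 and 3 IRF2 differed by 0.13, 0.11 and 0.46. Of the 9 genes 5 were lower in all 3 numbers and 1 higher in all 3, beside 14.3% and 12.5% of all probe sets. In mean 2 of the 9 were higher and 7 lower, and limma called 0, also with the replicate block. With the block 2 of the 9 had an unadjusted limma p under 0.05, beside 8.56% of all.

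Among 10 regulators of CIITA in B and plasma cells, 7 were above background on all 6 arrays. The polycomb genes EED, SUZ12 and EZH2, whose complex marks silent promoters, differed by 0.09 (SE 0.25), 0.12 (SE 0.26) and 0.11 (SE 0.36). PAX5, a B cell transcription factor gene, had 8.18, 8.31 and 8.36 in PRMT5_down, against 8.46, 8.36 and 8.38 in control. Its values in PRMT5_down replicate 3 and control replicate 2 met at 8.36, and the difference was -0.12 (SE 0.09). BCL6, a repressor gene of germinal centre B cells, differed by 0.28 (SE 0.35). PRDM1, the repressor of CIITA in plasma cells, had 5.67, 5.75 and 5.85 in PRMT5_down, against 5.86, 5.65 and 5.82 in control, which is above background on every array. IRF4, IRF8 and ZBTB32 were above background on none, and limma called 0 of the 10, also with the replicate block. With the block 1 of the 10, IRF8, had an unadjusted limma p under 0.05, beside 8.56% of all probe sets.

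Of 10 genes for endosomal proteases and class II trafficking, 7 were above background on all 6 arrays. CTSL, a cathepsin that trims CD74 in mouse thymic epithelium, had 9.93, 10.16 and 11.09 in PRMT5_down, against 10.19, 10.14 and 10.71 in control, and CTSB had 9.93, 10.18 and 10.72, against 9.96, 10.09 and 10.66 in control. In both genes the arrays of number 3 were the highest of their group. IFI30, a thiol reductase of antigen processing, differed by 0.14 (SE 0.20), the protease gene SPPL2A, which cleaves the CD74 stub, by 0.04 (SE 0.23) and CTSD by 0.08 (SE 0.28). MARCHF1, a ubiquitin ligase gene that lowers surface class II, was above background on no array. In mean 6 of the 10 were higher and 4 lower, and limma called 0, also with the replicate block. Of 5 other class II genes measured by a probe set of their own, HLA-DRB4 was above background on all 6 arrays, with 5.01, 5.22 and 5.22 in PRMT5_down and 5.22, 5.22 and 5.42 in control. HLA-DOA, HLA-DOB, HLA-DRB5 and HLA-DPB2 were above background on none.

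**Figure D2:**
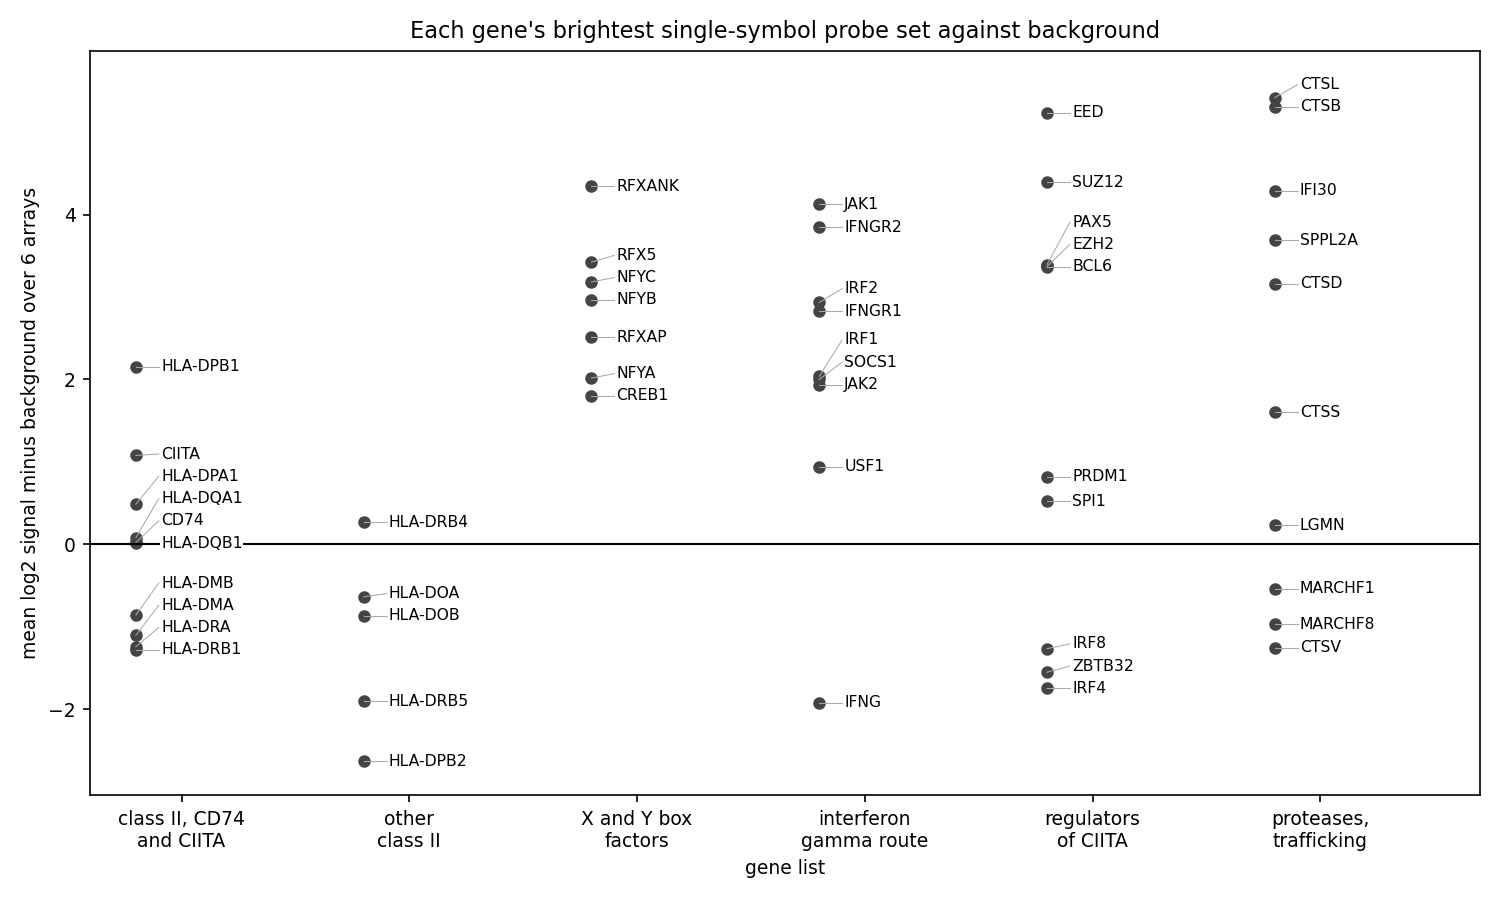
Mean log2 signal minus background over the 6 arrays (y axis) of each gene's brightest single-symbol probe set, in 6 gene lists (x axis). Each point is 1 gene, and the line at 0 is background. The 7 X and Y box factors all lie above the line, while 4 of the 10 members, HLA-DRA, HLA-DRB1, HLA-DMA and HLA-DMB, lie below it. Each point is read against the line and not against other points, since probe sets differ in scale.

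HLA class I, the other antigen-presenting family, was set beside class II in a list added after the values were seen. Of its 39 probe sets, including those of B2M and of NLRC5, the class I counterpart of CIITA, 14 were above background on all 6 arrays and 21 on none. By the brightest single-symbol probe set B2M and HLA-E were above background on all 6, and NLRC5 on none. This is a description of counts without a test between the families.

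Between PRMT5_down and control no class II probe set passed the test. Limma called 0 of the 58 at an adjusted p under 0.05, beside 0% of all 49293 probe sets. At an unadjusted p under 0.05 there were 0 of the 58 and 466 of all, or 0.945%. The smallest unadjusted limma p among the 58 was 0.118, and every adjusted p was 1. With the replicate number as a block limma also called 0 of the 58, beside 0% of all, and 0 of the 58 had an unadjusted p under 0.05, beside 8.56% of all and 4.17% of those above background on no array. In these bulk samples, fewer cells of a type and less RNA per cell cannot be told apart.

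The estimates were small, and intervals are given here for the 3 probe sets above background on all 6 arrays. For 11758771_at of HLA-DPB1 the means were 7.09 ± 0.15 in PRMT5_down and 7.12 ± 0.21 in control (SD, n = 3 each). On the log2 scale they differed by -0.03 (SE 0.14, 95% interval from -0.37 to 0.30). For 11715583_s_at of HLA-DPA1 they were 5.40 ± 0.14 in PRMT5_down and 5.47 ± 0.15 in control (SD, n = 3 each), a difference of -0.07 (SE 0.12, interval from -0.37 to 0.22). Neither difference exceeded the spread between replicates. For 11753193_a_at of CIITA the means were 5.97 ± 0.20 in PRMT5_down and 6.08 ± 0.09 in control (SD, n = 3 each), a difference of -0.11 (SE 0.12, interval from -0.41 to 0.19). The two-sided exact permutation test of 3 arrays against 3, which cannot go below p = 0.1, gave p = 0.7 for CIITA, 1.0 for HLA-DRA and 1.0 for CD74 on their brightest probe sets. Over the 58 probe sets the differences ran from -0.20 to 0.10, and their 95% limma intervals reached down to -0.56 and up to 0.45. All these intervals are for array signal and do not bound a change in transcript level. The HLA-DPA1 set lay only 0.3 to 0.63 log2 units over background, and other probe sets of HLA-DPB1, HLA-DPA1 and CIITA were above background on no array. For the 49 probe sets under background on all arrays a difference says little of transcript level, since both groups lie where signal is not told from background.

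Most class II differences were nevertheless below 0, by small amounts. Of the 58, 49 were below 0, 8 above and 1 at 0, with a median of -0.07. Among all probe sets 53.1% were below 0, with a median of -0.01. Among the 20806 probe sets above background on no array 61% were below 0, with a median of -0.03. The 58 are not independent of each other, since 37 may cross-match and several share a gene. Markers of plasma cells, B cells and monocytes mostly lay below 0 as well, each gene by its brightest single-symbol probe set: all 14 plasma cell genes, 10 of 11 B cell genes and 13 of 16 monocyte, macrophage and dendritic cell genes, with medians of -0.07, -0.05 and -0.05. The mean log2 signal of the plasma cell list ran from 4.58 to 4.67 over the PRMT5_down arrays and from 4.68 to 4.76 over the control arrays. For the B cell list it ran from 4.33 to 4.41 in PRMT5_down and from 4.39 to 4.47 in control, and for the monocyte list from 4.26 to 4.49 in PRMT5_down and from 4.31 to 4.54 in control. All these list means lay under the array backgrounds of 4.89 to 5.01. The mean of the 10 class II members was 4.75, 4.87 and 4.93 in PRMT5_down replicates 1, 2 and 3. In control replicates 1, 2 and 3 it was 4.92, 4.87 and 4.98, so the groups overlapped. Of 9 T and NK cell genes 5 lay above 0, 3 below and 1 at 0, with a median of 0.02. Erythroid and megakaryocyte genes lay above 0 in 8 of 11, with list means from 8.31 to 8.51 in PRMT5_down and from 7.95 to 8.18 in control. The part of these cell type markers in the class II differences was not tested.

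The differences depended on the replicate number. Within numbers 1, 2 and 3 the median over the 58 was -0.10, 0.00 and -0.07, and 41, 28 and 39 of the 58 were below 0. The corresponding medians over probe sets above background on no array were -0.03, 0.00 and -0.02. In number 2 the class II probe sets thus had no side. CIITA (11753193_a_at) differed by -0.37, 0.00 and 0.04 in numbers 1, 2 and 3, CD74 (11726254_s_at) by -0.40, 0.39 and 0.01, and HLA-DPB1 (11758771_at) by -0.18, 0.17 and -0.09. CD74 and HLA-DPB1 changed sign between numbers.

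**Figure D3:**
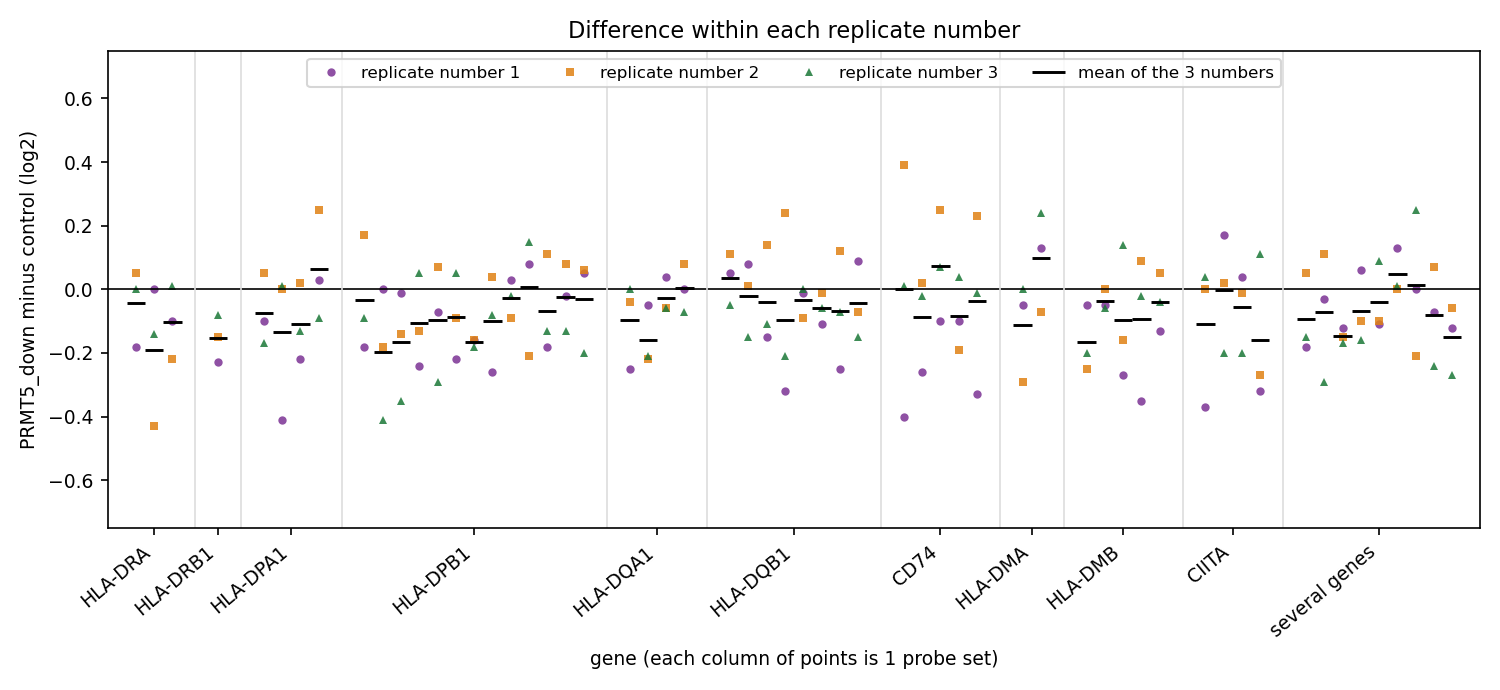
PRMT5_down minus control on the log2 scale (y axis) within replicate numbers 1, 2 and 3 (coloured points) for each of the 58 probe sets, grouped by gene on the x axis as in the plot of levels, with the mean as a black bar. The bars lie between -0.20 and 0.10, and the points of a probe set often lie on both sides of 0, as for CD74 at -0.40 and 0.39.

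The difference lay below 0 in all 3 numbers for 8 of the 58 probe sets, beside 14.3% of all probe sets and 15.5% of those above background on no array, and above 0 in all 3 for 0 of the 58, beside 12.5% of all and 7% of those above background on no array. The 8 came from HLA-DMB, HLA-DPB1 with 2, HLA-DQA1, HLA-DQB1, HLA-DRB1 and 2 sets shared by HLA-DQA1 with HLA-DQA2 or HLA-DRA. The most even was 11717300_x_at of HLA-DPB1, with -0.16, -0.16 and -0.18, from signals under background on every array. The groups did not overlap, with PRMT5_down lower, for 2 of the 58, beside 2.43% of all probe sets, and with PRMT5_down higher for 0 of the 58, beside 1.49%. Among probe sets above background on no array these shares were 3.91% and 1.69%. The 2 were 11754681_s_at of HLA-DMB, with a difference of -0.17 (SE 0.10), and 11761307_x_at of HLA-DPB1, also with -0.17 (SE 0.12). Both shares of non-overlapping probe sets are near those of the whole array.

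Single arrays stood apart from the rest in the class II signals. The median deviation of the 58 from their 6-array means was -0.07 in PRMT5_down replicate 1, -0.03 in replicate 2 and 0.01 in replicate 3, and 0.01, -0.01 and 0.09 in control replicates 1, 2 and 3. PRMT5_down replicate 1 alone held the lowest value of 24 of the 58, and control replicate 3 alone the highest of 26. No share over all probe sets is given for these counts, so they are not read as particular to class II. The same arrays were the low and the high one over all probe sets above background on no array, with medians of -0.04 and 0.04. Without PRMT5_down replicate 1, 42 of the 58 differences were below 0, and without control replicate 3, 40 were.

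**Figure D4:**
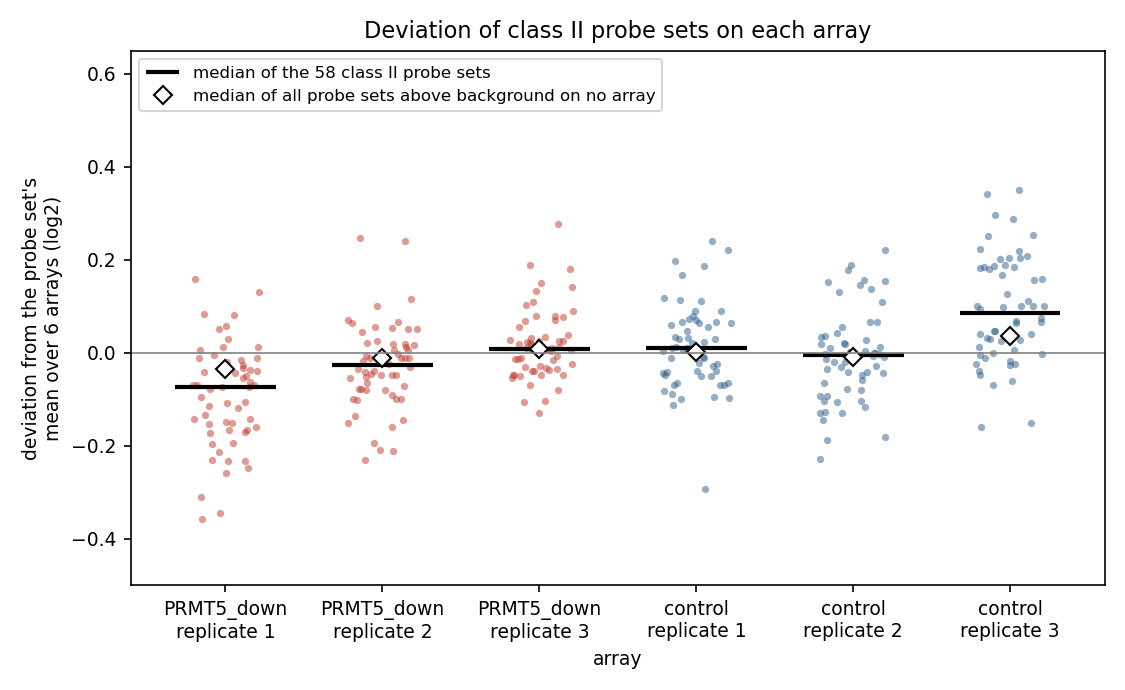
Deviation of each of the 58 class II probe sets from its own mean over the 6 arrays (y axis, log2) on each array (x axis), red for PRMT5_down and blue for control. Bars are the medians of the 58 and diamonds the medians of the 20806 probe sets above background on no array. The bar is lowest on PRMT5_down replicate 1, at -0.07, and highest on control replicate 3, at 0.09, and the diamonds run the same way by smaller amounts.

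Few class II probe sets differed between replicate numbers, at a share near that of other probe sets under background. In the limma fit with group and number, the F test over the 3 numbers called 2 of the 58 at an adjusted p under 0.05, or 3.45%, beside 33.5% of all probe sets. Among all probe sets above background on no array it called 6.16%, and among the 49 such class II probe sets 2, or 4.08%. The first was 11750527_s_at, shared by HLA-DQA1 and HLA-DRA, with 3.39, 3.33 and 3.74 in PRMT5_down replicates 1, 2 and 3 and 3.51, 3.48 and 3.91 in control replicates 1, 2 and 3 (limma adjusted p = 0.0202). Both arrays of number 3 were above the other 4, although every value was under background. Number 3 minus number 2 was 0.42 (SE 0.10, limma adjusted p = 0.0226). The other was 11757801_x_at of HLA-DPB1, also under background throughout, with 2.57, 2.73 and 3.06 in PRMT5_down and 2.49, 2.94 and 2.91 in control (limma adjusted p = 0.0439). Both calls were lost when 1 array was left out, which leaves 1 residual degree of freedom and ended all such calls on the array.

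By pairs of numbers limma called 0 of the 58 for number 2 minus 1, beside 17.2% of all, 2 for number 3 minus 1, beside 27.8%, and 1 for number 3 minus 2, beside 17.8%. Among probe sets above background on no array the 3 shares were 2.94%, 5.31% and 3.23%. The 3 probe sets above background on all 6 arrays did not pass the F test, with limma adjusted p of 0.17 for HLA-DPB1, 0.187 for HLA-DPA1 and 0.452 for CIITA. Among all probe sets above background on all 6 arrays the F test called 54.1%, against 6.16% of those above it on no array, so a share is read against probe sets of like signal. It called 5 of the 7 X and Y box factors, among them RFXAP, with 8.50, 7.15 and 7.14 in PRMT5_down and 8.14, 7.07 and 6.76 in control, where both arrays of number 1 were the highest. It also called 7 of the 10 endosomal genes, among them CTSS, a cathepsin that trims CD74 in B cells, with 5.71, 7.02 and 6.81 in PRMT5_down and 6.04, 6.87 and 6.86 in control. For CTSS both arrays of number 1 were the lowest.

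HLA-DPB1 (11758771_at) had the widest range of the 3 probe sets above background, 0.41 over the 6 arrays. The genes with the most similar pattern, by the root mean square difference between centred values over 6 arrays among 22909 probe sets, were KIF1C at 0.02, PDAP1 at 0.03, CELSR2 at 0.03, IRX5 at 0.03 and MYO1C at 0.03. This likeness is a description from a search over many candidates.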

How the data were processed

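Expression was measured on 6 Affymetrix arrays, 3 per group, and depth does not apply to arrays: their number limits the precision. Each deposited log2 value is the signal of 1 probe set after RMA, which the submitters' processing notes name. Its software version is not given in the sources used here, nor is the chip definition. RMA gives the probe intensities of all arrays 1 distribution before probe sets are summarized, which would hide a shift of most genes at once. The deposited probe set values still differ slightly in distribution, with array medians from 5.29 to 5.32. Values were used as deposited, with 79 control probe sets left out.

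Of 49293 probe sets, 44988 had 1 symbol, 1832 several and 2473 none. All entered lmFit and eBayes of limma 3.58.1 (R 4.3.3) with no block, with Benjamini-Hochberg adjustment over all and a threshold of 0.05. A second fit with group and replicate number tested the numbers. Deviations from group means correlated at r = 0.806, 0.705 and 0.778 across probe sets between arrays of numbers 1, 2 and 3, which is over the 0.1 set for treating equal numbers as pairs; the pairing comes from the data, not from the labels. Over the 58 class II probe sets these correlations were 0.0724, -0.144 and 0.174. The fits were tested on simulated data.

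The members and gene lists were chosen with earlier results of these data known. Of each pathway list up to 5 genes with the highest mean over background were named, and the 5 genes most like the widest-ranging class II probe set above background. Other names (PRDM1, CTSS, SOCS1, DEXI, single marker genes, class I) and the single probe sets described were chosen after their values were seen. The RefSeq gene table gave which genes overlap, and the promoter table the sequences and their GRCh38.p14 positions. Alternatives were quantile normalization, filters on low signal, the brightest probe set per gene, a trended and robust variance, weights on arrays, other backgrounds and left-out arrays.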

Additional observations from a re-analysis of the deposited data

How the results depend on the processing

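No setting called a class II probe set between PRMT5_down and control: the count was 0 in all 17 limma fits, also with the replicate block, and 0 of all probe sets were called in each. At an unadjusted p under 0.05 limma gave 466 of all probe sets in the planned fit, 185 and 80 where the lowest 30% and 50% were dropped, 4221 under the replicate block, 149 with the brightest probe set per gene, and 297 to 821 with 1 array left out. The replicate block without number 1, 2 or 3, added after seeing the data, gave 1179, 4874 and 1862, and 0, 1 and 1 of the 58. The replicate block changed no call. Class II differences below 0 numbered 49 as planned, 19 of 22 and 3 of 3 with the lowest 30% and 50% left out and 8 of 10 with the brightest probe set per gene, where fewer were tested. They numbered 47 after quantile normalization again, 40 to 51 with 1 array left out, and 41 when arrays were weighted.

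Direction turned, with no call, for HLA-DPA1 at 0.0093 and HLA-DPB1 at 0.0425 with array weights. With 1 array left out HLA-DPA1 ran from -0.14 to 0.01, HLA-DPB1 from -0.135 to 0.07 and HLA-DRA from -0.08 to 0.02. With the replicate block and without number 1 the differences were 0.025 for HLA-DRA, 0.04 for HLA-DPB1 and 0.02 for CIITA. The cause was not tested.

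Class II probe sets called between numbers were 2 as planned and 1 after quantile normalization again. They were 0 with the lowest 30% or 50% left out or the brightest probe set per gene. Neither of the 2 called sets was among those tested in these 3 settings, so the 0 there says nothing of these calls. With 1 array left out class II calls were 0, as were all calls, since 1 residual degree of freedom is left. The brightest probe set per gene gave 6359 calls between numbers over all genes, from fewer tested. Class II probe sets above background on all arrays were 3 as planned, 0 with the 99th percentile, 30 with the median of olfactory genes, and 3 to 4 with 1 array left out. Signals near background limit what can be read from most class II probe sets.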

Other observations

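SOCS1, the feedback inhibitor of JAK signalling on the interferon gamma route, differed between replicate numbers, and was singled out after its values were seen. It had 6.38, 5.79 and 8.34 in PRMT5_down replicates 1, 2 and 3, against 6.62, 5.96 and 8.61 in control replicates 1, 2 and 3. The arrays of number 3 were the highest and those of number 2 the lowest in both groups, and the F test over numbers called it (limma adjusted p = 0.000104). Its difference between PRMT5_down and control was -0.23 (SE 0.90), lower within each number by 0.24, 0.17 and 0.27, and limma did not call it (adjusted p = 1, and 0.542 with the replicate block). DEXI, which overlaps CIITA in the RefSeq table, had 7.17, 8.10 and 7.92 in PRMT5_down replicates 1, 2 and 3, against 7.33, 8.02 and 8.11 in control replicates 1, 2 and 3, with its lowest value in number 1 of both groups.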
